A study of Dendrobium officinale with 6 samples.

Results

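Auxin response factors (ARFs) are the transcription factors through which auxin reaches its target genes. Of 157901 unigenes (assembled transcript sequences) of Dendrobium officinale, 104 had ARF in the deposited column of transcription factor families, out of 2893 unigenes with any such family. Leaves of greenhouse-grown plants were compared with protocorm-like bodies (PLBs), which are small proliferating bodies of orchid tissue culture, in 3 libraries per tissue. The PLBs were raised from seeds. The medium given for them was 1/2 MS with 0.5 mg/L of the auxin α-NAA, 1.0 mg/L of the cytokinin 6-BA, 1.5 to 2.0 mg/L of the auxin 2,4-D and 100 g/L of potato juice. The paper names this formula as the best for propagation, and its methods describe induction with 2,4-D as the only growth regulator. Culture lasted 60 days under 1600 lx with 16 h of light and 8 h of dark, and the labels give no medium or agent for the leaves. Tissue, added auxin and cytokinin, growth conditions and source material therefore changed together and cannot be told apart in these libraries.

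An ARF binds auxin response elements in promoters with a B3-type domain, and a middle region then activates or represses transcription. Most ARFs also carry a carboxy-terminal PB1 domain, through which Aux/IAA proteins bind them and bring in the TOPLESS co-repressor. Auxin makes the TIR1/AFB receptors mark Aux/IAA proteins for degradation, which frees the ARF. Class A ARFs (ARF5, ARF6, ARF7, ARF8 and ARF19 in Arabidopsis) are activators, whereas ARFs of class B (ARF1, ARF2, ARF3, ARF4, ARF9 and ARF11 among others) and class C (ARF10, ARF16 and ARF17) are regarded mainly as repressors. In Arabidopsis, miR160 targets class C, miR167 targets ARF6 and ARF8, and trans-acting small RNAs target ARF2, ARF3 and ARF4.

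All 104 unigenes were named auxin response factor by their best NR protein match and carried the KEGG ortholog of ARFs. For 102 of them that protein came from Dendrobium catenatum, and the NT match placed the 104 at 20 D. catenatum loci, named here by the locus number. The Pfam domain listed was the ARF domain in 90, the B3 DNA-binding domain in 13 and a short chain dehydrogenase in 1, Unigene7278. They were long sequences, from 1617 to 11784 bases with a median of 3365.5, against a median of 817 for all unigenes. Contigs of 11 assembly clusters held 49 of them and 55 stood outside any cluster, which gave 66 clusters or unclustered unigenes. By the SwissProt match, which named ARFs of Arabidopsis, rice or tomato, 33 unigenes at 6 loci fell in class A, 59 at 10 loci in class B and 12 at 4 loci in class C. The numbers of rice ARFs do not follow those of Arabidopsis, so a name such as ARF17-like occurs in both class A and class C here.

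ARF transcripts were more abundant in PLBs, and the difference lay mostly in class B. Summed over the 104 unigenes, FPKM (fragments scaled to transcript length and sequencing depth) was 394, 378 and 396 in the leaf libraries and 858, 750 and 883 in the PLB libraries, a ratio of the means of 2.13. Class B went from 267 ± 9.7 to 626 ± 54 FPKM (SD, n = 3 in each tissue, as throughout), and class A from 79.2 ± 1.2 to 151 ± 32. Class C went from 43.0 ± 1.5 to 53.1 ± 3.4 FPKM. None of these sums overlapped between tissues. FPKM lacks the TMM scaling between libraries used in the tests below, with factors of 0.89 to 0.90 in leaves and 1.07 to 1.14 in PLBs. That scaling lowers PLB values against leaf values, so ratios of FPKM are larger than on the tested scale. The class C ratio was 1.24, while its tested unigenes had a median log2 fold change of -0.93. A rise of class C is therefore not shown. These sums carry no test, and a sum is a level in bulk tissue, where fewer cells of a type and less RNA per cell cannot be told apart.

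The make-up of the family shifted at the same time. Class B supplied 67.7% to 69.3% of ARF FPKM in the leaf libraries and 72.5% to 77.2% in the PLB libraries. A single class B locus, ARF2-like LOC110111813, supplied 2.34% to 2.55% of the summed FPKM of the 20 loci in leaves. In PLBs it supplied 13.5% to 21.0%. That rise is larger than the rise of class B, so a shift across the class B loci is not shown. Class C supplied 10.8% to 11.3% in leaves and 5.77% to 7.16% in PLBs. The share of class A overlapped, at 19.8% to 21.3% in leaves against 16.3% to 21.7% in PLBs.

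Of the 104 unigenes, 88 had enough counts to be tested. With edgeR's quasi-likelihood test and Benjamini-Hochberg adjustment over 70383 unigenes, 31 were higher in PLBs (35.2%) and 16 were lower (18.2%), against 16.8% and 22.9% of all unigenes tested. Calls needed an adjusted p no larger than 0.001 and a change of 1 or more on the log2 scale. Among 2379 tested unigenes of any transcription factor family the shares were 23.6% higher and 20.1% lower. The median log2 fold change was 0.97 for the ARF unigenes and 0.00 for all. A member that passed the filter only through the tissue where it was high had to differ: 7 tested ARF unigenes (7.95%) had no count in leaves and 5 (5.68%) none in PLBs, against 4.32% and 7.33% of all tested unigenes. The other 16 had means of at most 0.41 FPKM in leaves and 1.43 FPKM in PLBs, and 13 of them belonged to the ARF2-like locus LOC110111813.

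By class, 5 of 30 tested class A unigenes rose and 3 fell, with a median log2 fold change of 0.63. In class B, 22 of 46 rose and 10 fell, with a median of 1.71, and 8 of the 22 were contigs of the single locus LOC110111813. In class C, 4 of 12 rose and 3 fell, with a median of -0.93. Among all tested unigenes 16.8% were higher and 22.9% lower, so the rises in class A and the falls in class C were near the background. The number of unigenes called higher rested on each leaf library: it was 17 without leaf replicate 1, 20 without leaf replicate 2 and 17 without leaf replicate 3. The number called lower stayed between 12 and 15 in the same fits and those without a PLB library.

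**Figure D1:**
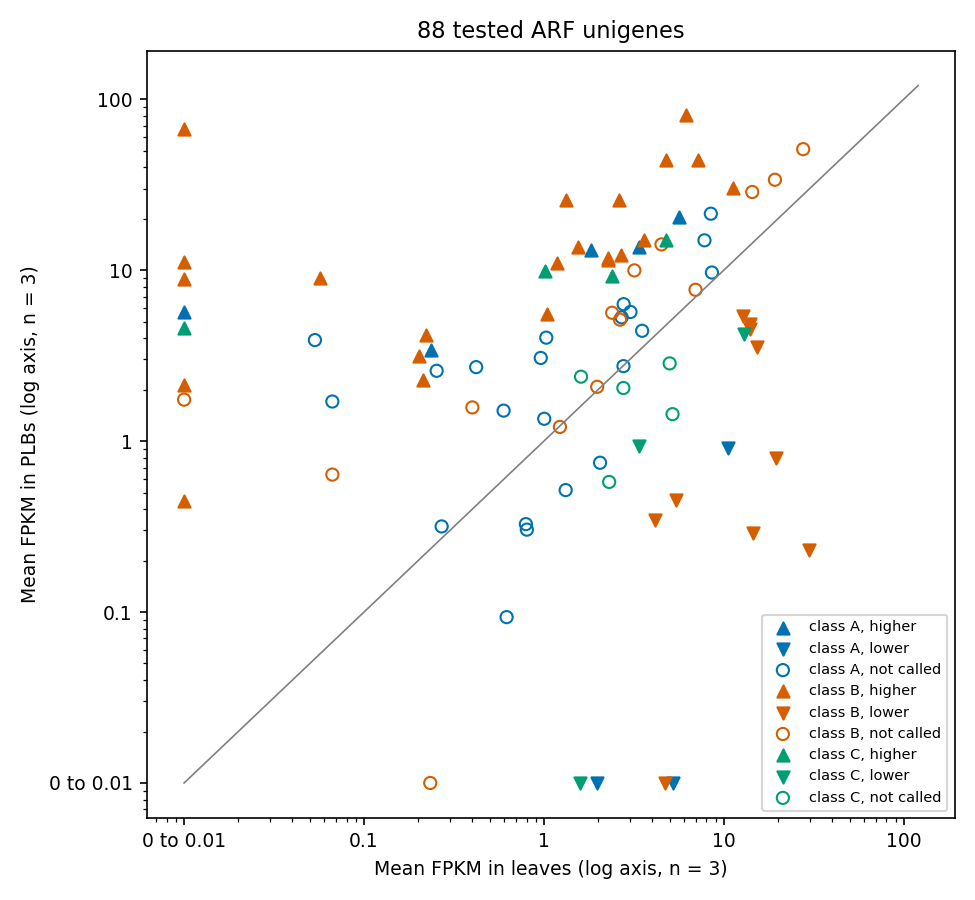
Mean FPKM in PLBs against mean FPKM in leaves (both log axes, n = 3 libraries each) for the 88 tested ARF unigenes, coloured by class, with triangles for unigenes called higher or lower and open circles for the others. The line marks equal levels and means from 0 to 0.01 are drawn at the edge. Class B supplies 22 of the 31 upward triangles, including the unigene at 66.6 FPKM in PLBs with no count in leaves.

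Summed per contig cluster, with unclustered unigenes on their own, 51 of 66 were tested. There were 24 higher in PLBs (47.1%) and 7 lower (13.7%), against 17.4% and 22.9% of 36425 tested clusters and unclustered unigenes. The median log2 fold change was 1.32. The number called higher was 15 without leaf replicate 1, 16 without leaf replicate 2 and 15 without leaf replicate 3. Of the 24, 8 were unclustered unigenes matching 1 locus, ARF2-like LOC110111813. Cluster CL2330 mixed contigs of 3 ARF18 loci, and CL4986 and CL652 mixed contigs of 2 loci each. Counts were therefore also summed over every unigene matching the same D. catenatum locus, 138 unigenes in all for the 20 loci, a level chosen after the data were seen. The files do not tell whether the contigs of a locus are isoforms, alleles, close paralogs or fragments of 1 transcript, so a locus here is a group of sequences with the same best match and may hold more than 1 gene.

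At the level of loci, 6 of 20 rose in PLBs (30%) and 2 fell (10%), against 16.5% and 20.4% of 24608 loci tested. Of the 12 not called, 8 passed an adjusted p of 0.05 and 4 did not. The FPKM of 13 loci was higher in every PLB library than in any leaf library and that of 3 was lower in each, which for the 16 together is near the background, since 76.8% of all tested loci did not overlap. The number of loci called higher was 2 without leaf replicate 1, 3 without leaf replicate 2 and 2 without leaf replicate 3, and the number called lower was 1 without PLB replicate 3. Log2 fold changes are on the scale of TMM-normalised counts. With library sizes alone the median over all loci moved to 0.33, and a ratio of FPKM means is accordingly larger than the fold change of the same locus.

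**Figure D2:**
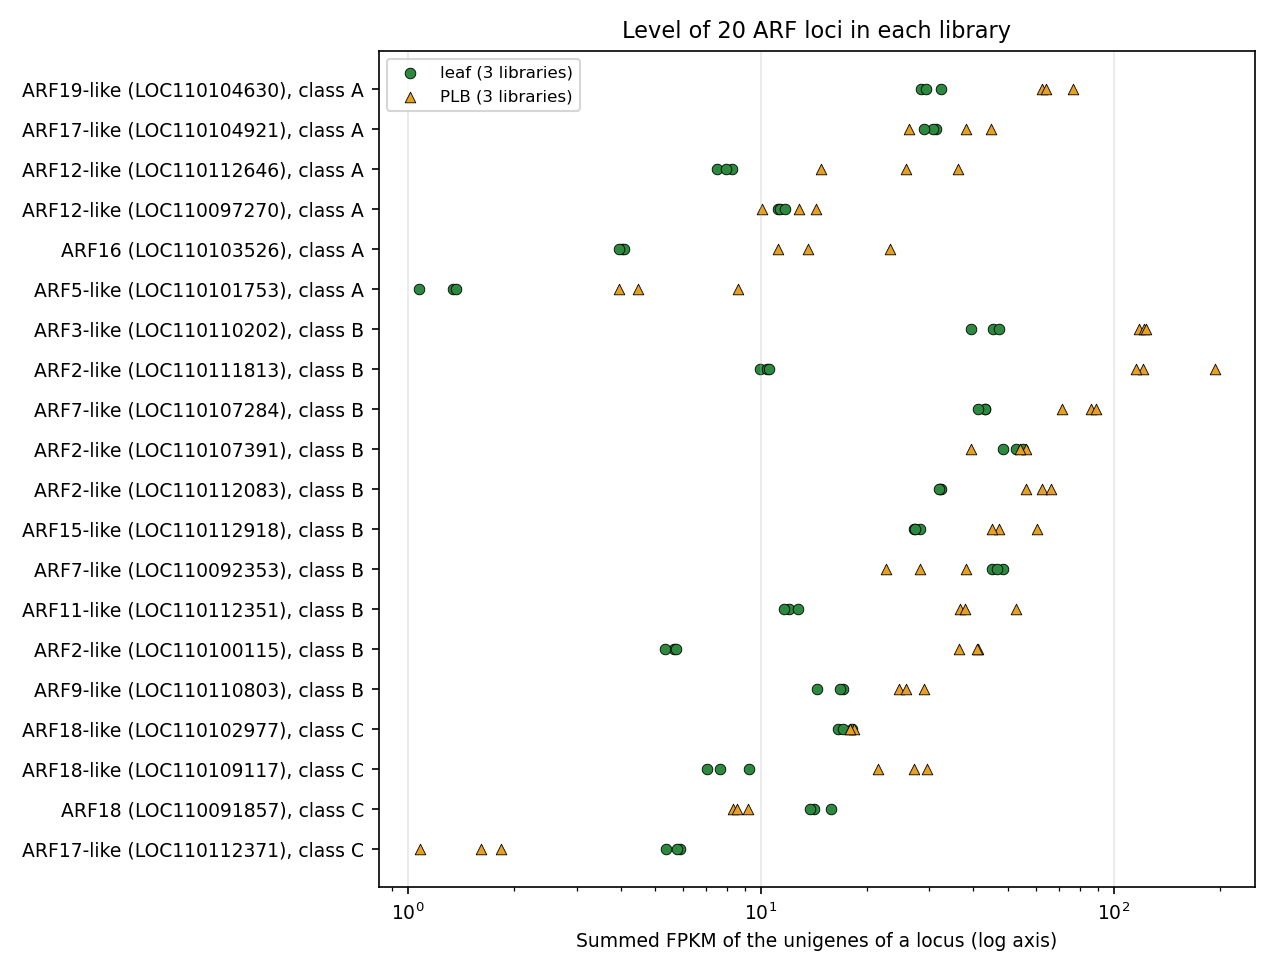
Summed FPKM (log axis) of the 20 ARF loci in each of 3 leaf libraries (circles) and 3 PLB libraries (triangles), ordered by class. The triangles lie right of every circle for 13 loci and left of every circle for 3, and the widest gap is that of ARF2-like LOC110111813, at 9.94 to 10.5 in leaves and 115 to 193 in PLBs.

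In class A, 1 of 6 loci was called, the ARF16 locus, and it rose. Arabidopsis ARF7 and ARF19, which promote lateral root formation and growth responses, correspond to rice ARF16 and ARF19. The ARF16 locus LOC110103526 had 4.05, 4.08 and 3.97 FPKM in leaves and 23.3, 13.6 and 11.2 in PLBs, with a log2 fold change of 1.59 ± 0.26 (SE) and an adjusted p of 7.8e-04. All PLB libraries stood above all leaf libraries, and PLB replicate 1 stood above the other PLB libraries. The call did not hold without any 1 of the leaf libraries or without PLB replicate 2, with adjusted p from 0.0025 to 0.0074, nor over the 6 contigs with the ARF label alone, at 0.0040.

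The ARF19-like locus LOC110104630 was the most abundant class A locus in PLBs, but its change stayed below the fold threshold. Its level was 28.4, 29.4 and 32.3 FPKM in leaves and 76.8, 62.7 and 64.2 in PLBs, without overlap (log2 fold change 0.93 ± 0.12, adjusted p = 1.8e-04). Within it Unigene39304 rose from 5.61 to 20.3 FPKM and Unigene43559 from 3.38 to 13.6. Unigene9582, of 11784 bases, rose from 0.24 to 3.39 FPKM, whereas Unigene39302 was at 8.58 and 9.68 FPKM and was not called. Unigene7278, with the dehydrogenase domain, was at 2.77 FPKM in leaves and 2.74 in PLBs.

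Rice ARF12 and ARF17 are relatives of Arabidopsis ARF6 and ARF8, which control flower maturation and stem growth, and the 3 loci matching them were not called. The ARF17-like locus LOC110104921 had 31.3, 30.7 and 29.0 FPKM in leaves and 44.9, 26.3 and 38.0 in PLBs, and the ARF12-like locus LOC110097270 had 11.2, 11.3 and 11.7 against 14.3, 10.0 and 12.8. In both, PLB replicate 2 was below the leaf libraries and the other PLB libraries were above them, so the tissues overlapped. The other ARF12-like locus, LOC110112646, had 7.52, 8.26 and 7.94 FPKM in leaves and 36.2, 14.8 and 25.7 in PLBs, without overlap (log2 fold change 1.41 ± 0.26, adjusted p = 0.0015). Its Unigene25976 was called by itself and rose from 1.83 to 13.1 FPKM.

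The ARF5-like locus LOC110101753 was the least abundant in leaves. It carries ARF5 in its NR name, after the Arabidopsis regulator of embryo patterning and vascular development, but its SwissProt match was rice ARF19. It had 1.34, 1.37 and 1.07 FPKM in leaves and 8.6, 3.97 and 4.49 in PLBs (log2 fold change 1.40 ± 0.30, adjusted p = 0.0033). Every PLB library was above every leaf library, although the test was not passed at the threshold used.

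**Figure D3:**
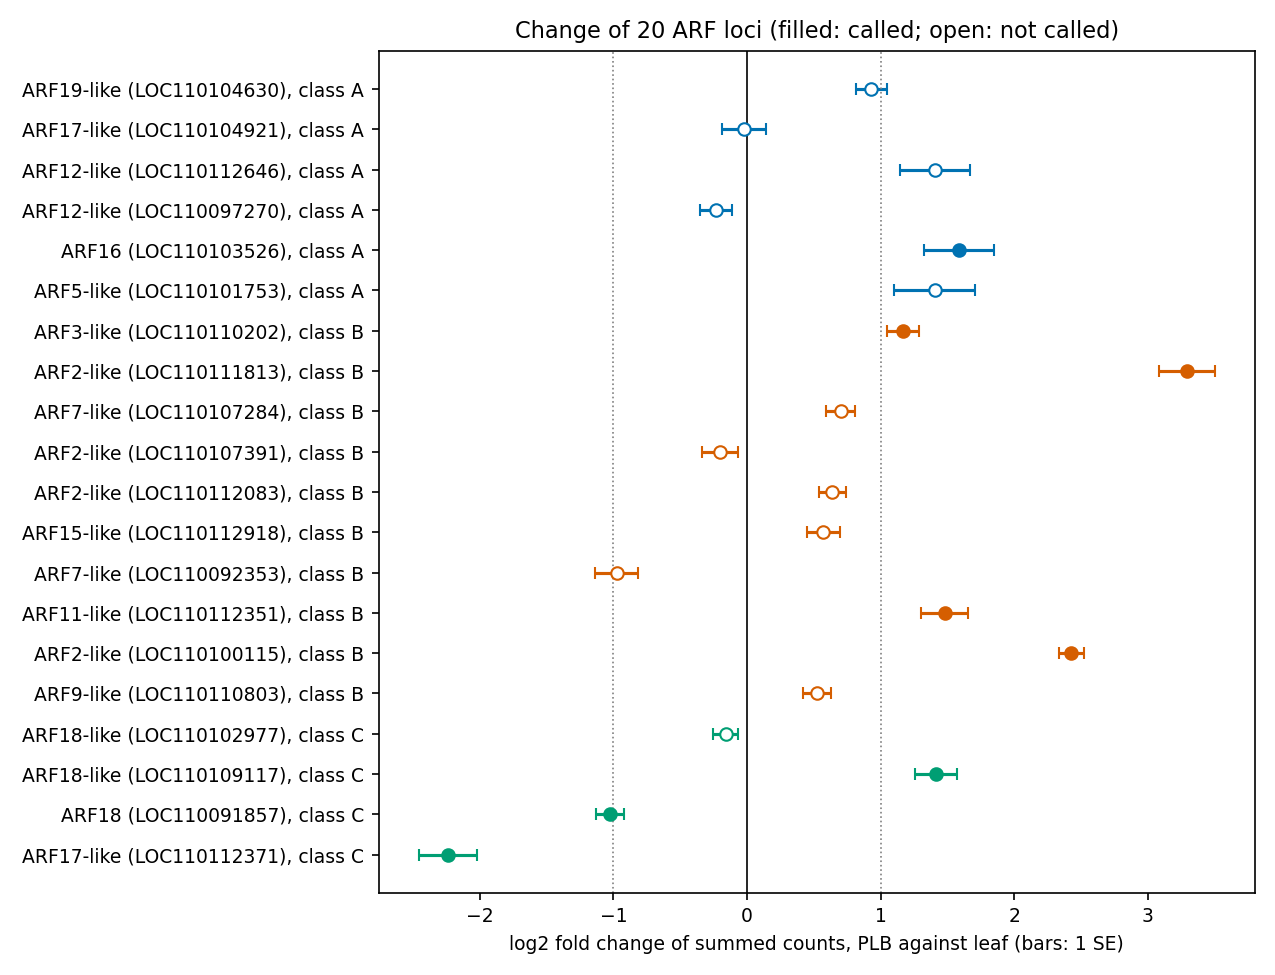
Log2 fold change of summed counts, PLBs against leaves, for the 20 ARF loci, with bars of 1 SE, filled points for loci called and open points for the others. Dotted lines mark the fold threshold of 1 in each direction. Class B holds the 2 largest rises, 3.29 and 2.43, and class C holds both called falls, -1.03 and -2.24.

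Class B held 4 of the 6 loci that rose, and 2 of these were ARF2-like. Arabidopsis ARF2 restrains cell division and seed size and promotes leaf senescence. The ARF2-like locus LOC110111813 was at 9.94, 10.4 and 10.5 FPKM in leaves and 121, 115 and 193 in PLBs, with a log2 fold change of 3.29 ± 0.21 and an adjusted p of 5.9e-06. PLB replicate 3 was the highest, and every PLB library stood far above the leaf libraries. The locus supplied 2.34% to 2.55% of the summed FPKM of the 20 loci in leaves and 13.5% to 21.0% in PLBs.

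Most of that rise in FPKM lay in sequences with no count in leaves. Unigene7197 was at 0 in the leaf libraries and at 55.7, 42.1 and 102 FPKM in the PLB libraries, at least 2924-fold higher against a floor of 3 counts over the leaf libraries. Unigene10286 was likewise at 0 in leaves and at 7.07, 11.7 and 14.7 FPKM in PLBs, at least 546-fold higher. In the other direction, Unigene5042 had 4.16, 5.05 and 4.85 FPKM in leaves and 0 in each PLB library, at least 404-fold lower. These bounds cover counting error only. Unigene12544 was present in both tissues and rose from 5.12, 4.51 and 4.62 to 37.2, 44.8 and 50.9 FPKM (log2 fold change 2.91 ± 0.17, adjusted p = 1.0e-05).

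Smaller amounts came from Unigene13267, at 0.057 FPKM in leaves and 8.99 in PLBs, Unigene12036, at 0.22 and 4.18, Unigene4897, at 0.20 and 3.13, and Unigene4599, at 0 and 2.13. All of these were called higher. In the cluster fit, the call of Unigene4897 was lost without leaf replicate 1 or 3, and that of Unigene4599 without each leaf library and without PLB replicate 1 or 3 (adjusted p 0.0012 to 0.0026). With 23 of the 104 unigenes, this locus was split into more contigs than any other ARF locus.

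The second ARF2-like locus that rose, LOC110100115, had 5.68, 5.34 and 5.75 FPKM in leaves and 41.3, 36.5 and 41.0 in PLBs, with a log2 fold change of 2.43 ± 0.09 and an adjusted p of 9.0e-07. Its libraries were close together within each tissue. Of its 5 contigs, Unigene19177 carried the change: it rose from 0.88, 2.57 and 0.55 to 26.9, 25.8 and 24.4 FPKM, and from 25.1% to 74.0% of the ARF-labelled FPKM of the locus. Unigene13240, at 1.23 and 1.21 FPKM, and Unigene31104, at 2.39 and 5.63, were not called.

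The other ARF2-like loci did not pass both thresholds. LOC110112083 had 32.1, 32.4 and 32.0 FPKM in leaves and 62.5, 56.3 and 66.6 in PLBs, without overlap (log2 fold change 0.64 ± 0.10, adjusted p = 6.6e-04). LOC110107391 had 52.8, 48.4 and 55.1 FPKM in leaves and 56.3, 39.3 and 54.3 in PLBs, with overlap, and was the most abundant ARF locus in leaves. The level of ARF2-like transcripts in leaves thus came mostly from other loci than those that rose most in PLBs.

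The ARF3-like locus LOC110110202 was the second most abundant ARF locus in PLBs and rose as a whole. Arabidopsis ARF3, also called ETTIN, gives the lower side of leaves and the gynoecium their identity, and its protein lacks the PB1 domain. Summed FPKM was 45.6, 39.3 and 47.1 in leaves and 118, 122 and 123 in PLBs, with a log2 fold change of 1.17 ± 0.12 and an adjusted p of 7.2e-05. The call narrowly failed without each of the leaf libraries, with adjusted p of 0.0011 to 0.0013. The ARF15-like locus LOC110112918, which matches a rice ARF, had 28.2, 27.2 and 27.4 FPKM in leaves and 60.6, 47.2 and 45.2 in PLBs and was not called (log2 fold change 0.57 ± 0.12, adjusted p = 0.0033).

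The contigs of the ARF3-like locus moved in opposite directions. Unigene57667, named isoform X2 by NR, had 30.8, 24.5 and 33.3 FPKM in leaves and 0.39, 0.13 and 0.17 in PLBs (log2 fold change -7.27 ± 0.35, adjusted p = 6.4e-06). Unigene32798, named isoform X1, had 5.48, 6.47 and 6.53 FPKM in leaves and 75.5, 79.4 and 88.3 in PLBs (log2 fold change 3.41 ± 0.15, adjusted p = 5.0e-06). The first went from 66.9% to 0.19% of the FPKM of the locus, and the second from 14.1% to 66.8%.

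The remaining contigs of that locus were also called. Unigene74845 fell from 4.15 to 0.35 FPKM, while CL4986.Contig1 rose from 2.60 to 25.9 and Unigene29704 from 1.54 to 13.7. NR named Unigene74845 isoform X1 as well, so the direction did not follow the isoform name.

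Arabidopsis ARF11 and ARF9, and rice ARF7, are less studied members of class B, and the loci matching them differed in direction. The ARF11-like locus LOC110112351 had 12, 11.6 and 12.7 FPKM in leaves and 36.8, 52.8 and 37.9 in PLBs (log2 fold change 1.48 ± 0.18, adjusted p = 1.4e-04), a call lost without each leaf library at adjusted p of 0.0016 to 0.0019. All 4 of its contigs were higher on average in PLBs, 2 of them called. The ARF9-like locus LOC110110803 had 17.1, 14.4 and 16.8 FPKM in leaves and 24.5, 25.8 and 29.0 in PLBs (log2 fold change 0.52 ± 0.11, adjusted p = 0.0025).

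The ARF7-like locus LOC110107284 had 43.2, 43.1 and 41.3 FPKM in leaves and 86.2, 71.4 and 88.9 in PLBs, without overlap (log2 fold change 0.70 ± 0.11, adjusted p = 5.5e-04). The other ARF7-like locus, LOC110092353, had 48.5, 45.2 and 46.6 FPKM in leaves and 38.2, 22.7 and 28.2 in PLBs, also without overlap (log2 fold change -0.98 ± 0.16, adjusted p = 7.9e-04). It was the only class B locus whose PLB libraries were all below its leaf libraries, and the fold threshold was narrowly missed.

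Class C was split between both directions. Arabidopsis ARF10, ARF16 and ARF17 act in root cap formation, seed germination and pollen development. The ARF17-like locus LOC110112371, matching rice ARF8, fell from 5.91, 5.39 and 5.78 to 1.61, 1.08 and 1.83 FPKM (log2 fold change -2.24 ± 0.22, adjusted p = 5.1e-05). It was the largest fall among the 20 loci.

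The ARF18 locus LOC110091857 fell from 14.1, 13.8 and 15.8 FPKM in leaves to 9.20, 8.35 and 8.57 in PLBs (log2 fold change -1.03 ± 0.11, adjusted p = 6.9e-05). It lay at the fold threshold: without PLB replicate 3 the log2 fold change was -0.99, and with library sizes alone it was -0.71, so that it was not called. The ARF18-like locus LOC110109117 rose from 7.05, 9.23 and 7.64 to 21.4, 27.1 and 29.6 FPKM (log2 fold change 1.42 ± 0.16, adjusted p = 1.0e-04), a call lost without leaf replicate 1 or 3 at adjusted p of 0.0013 and 0.0020. The other ARF18-like locus, LOC110102977, was at 18.1, 16.5 and 17.1 FPKM in leaves and 17.9, 18.3 and 17.9 in PLBs, with overlap.

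Contig usage, the share of each contig in the counts of its cluster or locus, changed in most of the ARF clusters and loci tested, as it did in most of those in the assembly. A test of differential usage in edgeR (adjusted p of at most 0.001) was passed by 8 of 10 ARF clusters (80%) against 72.3% of 10528 clusters, and by 14 of 18 ARF loci (77.8%) against 73.9% of 13144 loci. A change of usage was thus not particular to ARFs. Contigs called in opposite directions stood at 10 of the 18 loci (55.6%), against 27% of loci with 2 or more tested contigs, but loci with many contigs have more chances of this. The 10 include contigs without the ARF label, and among ARF-labelled contigs alone the number was 9. The reads matching several contigs were divided among them by estimation, and contigs of a locus are not independent measurements.

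Of the 4 loci whose sums overlapped between tissues, 3 held contigs called in opposite directions, and ARF12-like LOC110097270 held none that was called. At ARF2-like LOC110107391, CL411.Contig1 had 14.6, 12.8 and 16.3 FPKM in leaves and 0.32, 0.45 and 0.10 in PLBs. CL411.Contig3, with the most counts, had 14.9, 14.6 and 13.6 FPKM in leaves and 32.1, 23.2 and 30.6 in PLBs, and was not called. Its share of the ARF-labelled FPKM of the locus went from 29.0% to 58.6%. CL411.Contig2 rose from 1.18 to 11 FPKM and CL411.Contig5 fell from 13.9 to 4.53.

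At ARF18-like LOC110102977, CL2330.Contig1 fell from 13.3, 11.6 and 13.9 to 4.12, 3.93 and 4.59 FPKM, and from 84.4% to 23.5% of the ARF-labelled FPKM of the locus. CL2330.Contig9 rose from 2.38 to 9.18 FPKM, and CL2330.Contig5 went from 0 in each leaf library to 3.81, 6.44 and 3.44 FPKM, at least 184-fold higher. CL2330.Contig7, of the ARF18-like locus LOC110109117, had 1.42, 1.59 and 1.77 FPKM in leaves and 0 in each PLB library, at least 87.7-fold lower.

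At ARF17-like LOC110104921, CL1266.Contig1 had 3.63, 6.55 and 5.42 FPKM in leaves and 0 in each PLB library, at least 414-fold lower, and CL1266.Contig2 fell from 10.5 to 0.91. CL1266.Contig3 rose from 0.01, 0 and 0 to 8.98, 6.61 and 1.54 FPKM (adjusted p = 2.1e-04). CL1266.Contig4, with 9.55, 7.59 and 8.25 FPKM in leaves and 26.5, 13.1 and 24.5 in PLBs, was not called. PLB replicate 2 stood apart in this cluster: CL1266.Contig5 was at 4.48 FPKM there and at 0 and 0.04 in the other PLB libraries, and CL1266.Contig6 at 0.61 against 7.42 and 9.04.

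At ARF7-like LOC110092353, CL529.Contig6 fell from 20.3, 18.3 and 20.1 to 0.55, 1.27 and 0.57 FPKM. CL529.Contig5 had no count in leaves and 13, 6.13 and 7.48 FPKM in PLBs, at least 456-fold higher. CL529.Contig4 fell from 12.7 to 5.41 FPKM and CL529.Contig3 rose from 1.04 to 5.53. At the other ARF7-like locus, Unigene15893 rose from 7.15, 8.21 and 6.18 to 44.3, 39.9 and 48.9 FPKM, while Unigene28909 fell from 14.4, 15.4 and 16.0 to 3.90, 2.15 and 4.55.

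**Figure D4:**
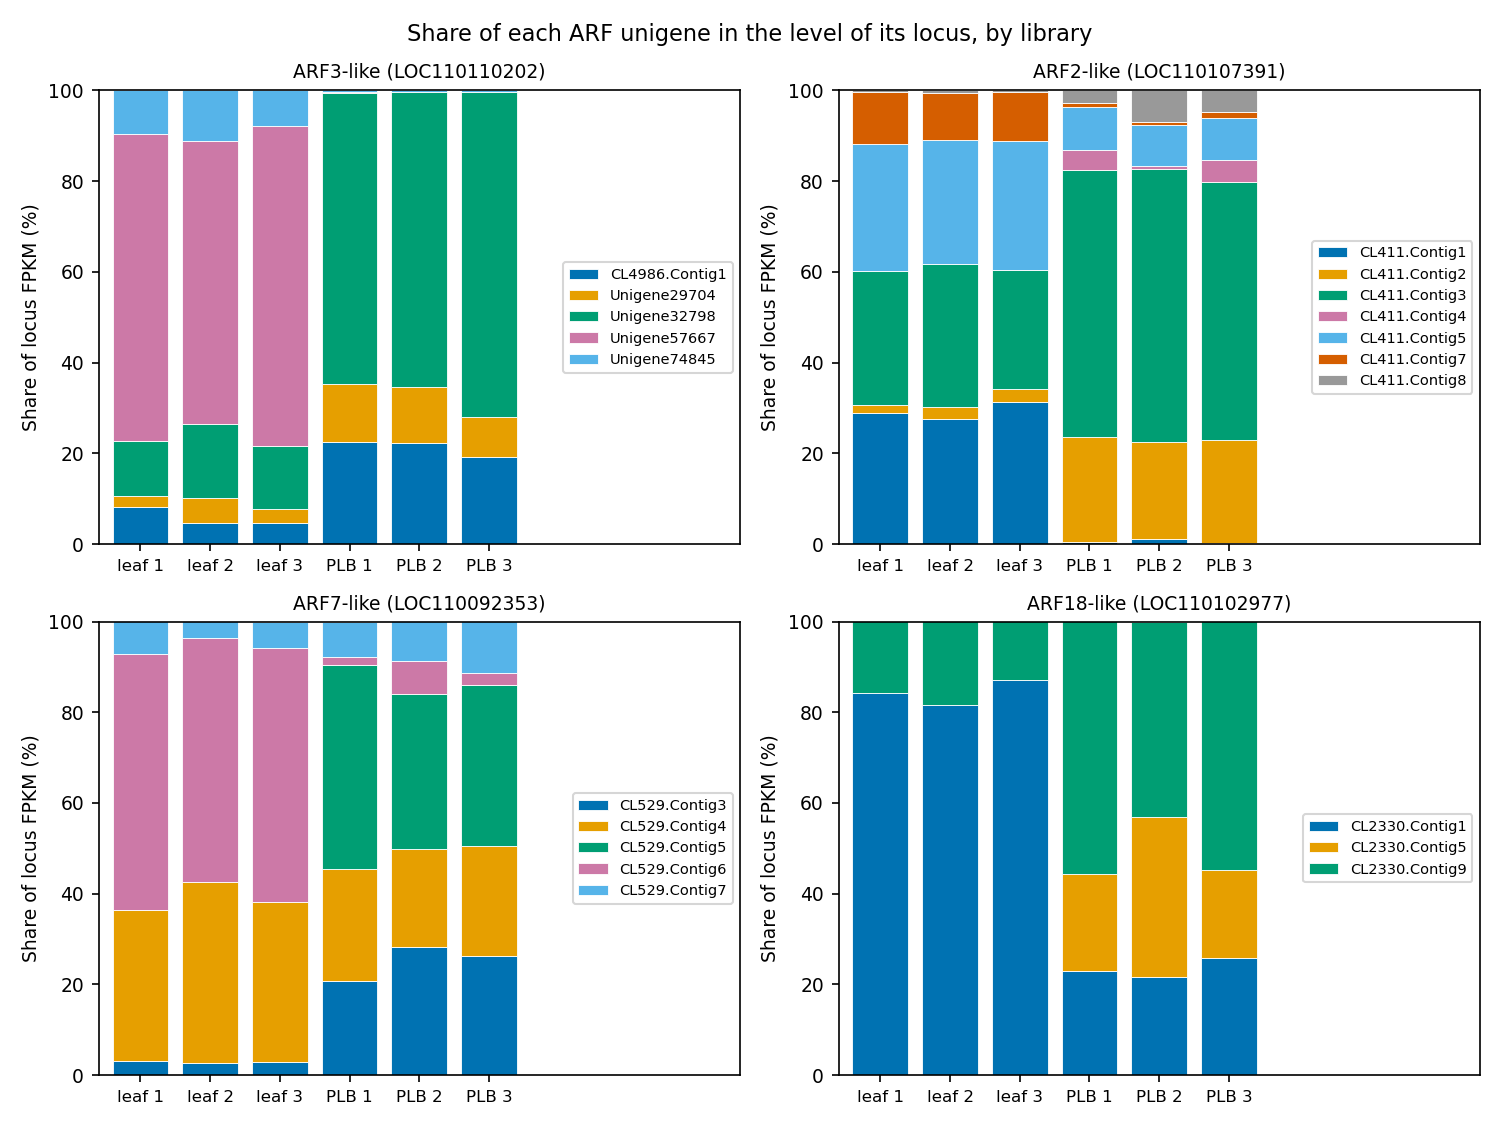
Share of each ARF unigene in the summed FPKM of the ARF unigenes of its locus (%), in leaf libraries 1 to 3 and PLB libraries 1 to 3, for 4 loci. Replicates of a tissue resemble each other and the tissues differ, as for Unigene57667, which holds 66.9% of ARF3-like FPKM in leaves on average and 0.19% in PLBs.

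Assembly clusters and loci could give opposite calls for sequences with the same best match. For ARF16, cluster CL2569 fell from 2.64 to 1.04 FPKM (log2 fold change -2.67 ± 0.42, adjusted p = 5.3e-04). Its sum includes sequence without the ARF label, and over its ARF-labelled contigs alone the log2 fold change was -4.99 (adjusted p = 7.9e-06). Among the labelled contigs, CL2569.Contig3 was at 0 in PLBs, at least 149.9-fold lower, and CL2569.Contig2 was at 0.62 and 0.09 FPKM. The unclustered contigs of the same locus were higher in PLBs on average: Unigene28409 was at 0.25 and 2.58 FPKM, Unigene28410 at 0.42 and 2.71, and Unigene28412 at 0.05 and 3.90. Of these, Unigene28409 was called in the cluster fit, at an adjusted p of 5.0e-04, and not in the unigene fit, at 0.0011. Summed over the locus, ARF16 rose. In the cluster fit, the calls of CL2569, over all its contigs, and of Unigene28409 were lost without each leaf library and without PLB replicate 2 or 3. Adjusted p was 0.0011 to 0.0044 in these fits. The call of Unigene28409 was lost without PLB replicate 1 as well.

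In cluster CL12890 usage also changed, but the cluster holds 2 further contigs annotated as an IAA-amino acid hydrolase, and over the 4 contigs of the ARF11-like locus the test was not passed (adjusted p = 0.022). CL12890.Contig1 rose from 3.59 to 14.9 FPKM and CL12890.Contig3 from 2.69 to 12.3. In CL8632, of the ARF9-like locus, CL8632.Contig2 rose from 2.28 to 11.7 FPKM and CL8632.Contig4 was at 6.96 and 7.67. The sum over CL4986, which joins ARF3-like and ARF15-like contigs, was higher in PLBs (log2 fold change 1.02 ± 0.13), a call lost without each leaf library and without PLB replicate 1 or 2, at log2 fold changes from 0.96 to 1.04.

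Among the proteins that act with ARFs, the Aux/IAA repressors were higher in sum. The counts that follow are read against 17.4% higher and 22.9% lower among all tested clusters and unclustered unigenes. They and the values of a named cluster cover every contig of that cluster, whereas the sums cover only the unigenes matched by name. Of 17 tested Aux/IAA clusters or unclustered unigenes, 8 rose and 5 fell, and their FPKM summed to 204 to 214 in leaves and 675 to 1022 in PLBs. IAA21-like Unigene25783 alone rose from 53.9 to 496 FPKM (log2 fold change 2.86 ± 0.18) and IAA1-like Unigene25569 from 16.7 to 88.2. The cluster CL1395 of TIR1-like receptors was at 10.6 and 15.9 FPKM and was not called, and its contig matched by the name used for the list was at 0 in every library. Of 3 tested clusters or unclustered unigenes with a TOPLESS name, CL3294 fell from 17.7 to 12.9 FPKM. Its log2 fold change of -1.08 ± 0.19 and adjusted p of 9.8e-04 lay close to both thresholds. CL578, at 51.5 and 85.5 FPKM, was not called. The 5 unigenes named TOPLESS summed to 6.65 to 7.34 FPKM in leaves and 22.04 to 32.1 in PLBs, and the other contigs of CL3294 and CL578 were named TPR2-like or TPR3-like, after proteins related to TOPLESS.

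Early auxin-responsive gene families, which ARFs control in other plants, did not move together. Of 12 tested SAUR genes 5 fell and 7 were not called, and their FPKM summed to 291 to 329 in leaves and 50.4 to 109 in PLBs, with SAUR32-like CL10334 going from 187 to 20.6. Of 5 tested GH3 genes, whose enzymes attach amino acids to auxin, 3 rose and 2 were not called, and the 7 unigenes matched summed to 16.4 to 17.4 FPKM in leaves and 72.5 to 104 in PLBs. GH3.1 Unigene20361 rose from 0.10 to 69.3 FPKM (log2 fold change 9.0 ± 0.33). Cluster CL116, at 58.3 and 48.7 FPKM, was not called, and it holds 1 contig named GH3.5 beside contigs named after JAR1, which acts on jasmonic acid.

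Genes for making auxin and moving it included calls in both directions. Of 5 tested YUCCA and TAA auxin synthesis genes 3 rose and 2 fell, among them YUCCA2-like CL3727, from 1.43 to 8.23 FPKM, and the aminotransferase Unigene391, from 12.2 to 2.2. Of 18 tested auxin transporters 1 rose and 5 fell, the latter a share close to the background, with PIN-LIKES 6 Unigene21843 going from 90.5 to 8.90 FPKM and auxin transporter-like CL5625, at 45.8 and 35.3, not called. Of 8 tested genes of the trans-acting small RNA machinery 1 rose, 1 fell and 6 were not called, shares below the background in each direction, DICER-LIKE 4 CL4327 and SGS3 Unigene22430 among the last at 12.6 and 16.6 FPKM and at 11.5 and 13.3 FPKM. Small RNAs were not measured.

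Marker genes of leaf and dividing tissue also differed between the tissues. Of 22 tested leaf mesophyll markers 17 fell and 3 rose, and their sum was 18020.3 to 21252 FPKM in leaves and 744 to 1982 in PLBs. The markers of dividing tissue were PCNA, histone H4, knotted-like and WUSCHEL genes. Of 21 tested 11 rose and 2 fell, with sums of 159 to 176 and 271 to 411 FPKM. The 2 most abundant of them were not called: WUSCHEL-related CL11329, at 52.8 FPKM in leaves and 85.9 in PLBs, and knotted-like Unigene11073, at 33.6 and 41.6. Of 14 vascular markers 5 rose and 4 fell, with overlapping sums of 140 to 170 and 149 to 194 FPKM. Their part in the ARF results was not tested.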

How the data were processed

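RNA was sequenced from 3 leaf and 3 PLB libraries, described as biological replicates. Per library the authors deposited expected counts (estimated reads per unigene), TPM and FPKM, with a series table of FPKM and annotation. The submitters' processing notes name Bowtie2 2.2.5 and RSEM 1.2.8. The authors' fold changes, p-values and q-values in that table were not used. Library totals were 17602153 to 18408442 counts, and 59.1% to 64.9% of those above 0 were not whole.

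ARF unigenes were those with ARF in the deposited family column, and classes followed the SwissProt match. Members, gene lists and tests were chosen with earlier results of these data known. Counts, per unigene or summed by cluster or NT locus, were rounded and tested with edgeR 4.0.16 (filterByExpr, TMM, quasi-likelihood F test, Benjamini-Hochberg over all features; R 4.3.3). Standard errors were derived from the log2 fold change and its F statistic. Contig usage was tested with diffSpliceDGE. The fits were also run on simulated counts, which had less spread between libraries than the unigene fit estimated here and shared no reads among contigs. Those runs therefore do not measure the error rates in these data. Replicate numbers follow accession order and pair no libraries. The p-values weigh a difference of means against the spread between these 3 libraries per tissue, estimated with information from all tested features.

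Clusters named in the text were those called, up to 12 per direction by size with a mean of at least 1 FPKM in either tissue, and the 8 with the highest FPKM; contigs were the 2 with the most counts in clusters with changed usage. Contigs beyond these, and every locus, were named after their values were seen. For each auxin list, and for the markers of dividing tissue, the 2 clusters with the highest FPKM were named. Alternatives used DESeq2 1.42.0, limma 3.58.1 on log2(FPKM + 0.1 or 1), other scalings, filters and thresholds, and each library left out.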

Additional observations from a re-analysis of the deposited data

How the results depend on the processing

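Under 17 or fewer alternatives per result, the ARF genes called higher outnumbered those called lower at the level of unigenes and of clusters in each setting. At the level of loci this did not hold: 2 were higher and 2 lower without leaf replicate 1, and likewise without leaf replicate 3. With an adjusted p under 0.05 and no minimum fold, 49 unigenes and 13 loci were higher. Taking the contig with the most counts for each locus gave 11 loci higher and 4 lower. With library sizes alone, and with limma on log2(FPKM + 0.1) or log2(FPKM + 1), 1 locus was lower in each case. DESeq2 called 35 unigenes higher and 21 lower. Leaving out each library in turn gave 17 to 26 unigenes, 15 to 21 clusters and 2 to 6 loci higher, and 1 to 3 loci lower. The cause was not tested, except that a fit without a library has fewer samples.

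Of 720 alternative values for single clusters and loci, 617 kept direction and call, 49 lost the call, 34 gained it and 20 changed sign, all of the last for 6 results near 0 that were not called. With library sizes alone these log2 fold changes were 0.32 for CL1266, 0.13 for CL411, 0.092 for LOC110097270, 0.16 for LOC110102977, 0.30 for LOC110104921 and 0.12 for LOC110107391. With limma they were 0.30 at both pseudocounts for CL1266, 0.10 for LOC110097270, 0.064 and 0.061 for LOC110102977, and 0.23 and 0.22 for LOC110104921. With the contig with the most counts they were 0.96 for CL1266, 0.63 for CL411, 0.92 for LOC110104921 and 0.58 for LOC110107391. Leaving out 1 library gave -0.18 (without PLB replicate 1) to 0.077 (without PLB replicate 2) for CL1266, and -0.18 to 0.091 in the same order for LOC110104921. The fall of CL2569 was not called with library sizes alone (log2 fold change -2.31, adjusted p = 0.0017) or with limma. The calls of LOC110111813, LOC110100115 and LOC110112371 held under every alternative run. No paired analysis was possible because the labels give no replicate numbers. Reads divided among similar contigs limit what single contigs show.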
